A study of Mus musculus with 15 samples.

Results

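Genes of fatty acid oxidation and of the Cyp4a subfamily were followed in mouse liver RNA: Cpt1a, Hadha, Ehhadh, Acaa1b, Cyp4a10, Cyp4a14 and Cyp4a31. They were read from the array rows that name 1 of these symbols alone, and each gene was taken from its probe set with the highest mean over the 15 arrays. That gave 7 of the 19938 genes measured in this way, and each had 1 probe set of its own. Whole-liver RNA of 15 mice had been hybridised to Affymetrix whole-transcript arrays, with a separate array for every mouse and 5 groups of 3 mice. All values here are log2 expression, so a difference of 1 is a factor of 2, and a level of one gene was not set against a level of another.

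The mice were C57BL/6, labelled male, fed chow and killed at 8 weeks. The WT group carried a floxed NEMO gene (Ikbkg, the regulatory subunit of the IKK complex that activates NF-kB), and its labels name no Cre. Jnk1 KO and Jnk2 KO mice lacked the stress kinase genes Jnk1 (Mapk8) or Jnk2 (Mapk9) throughout the body. The double knockouts, NEMO/Jnk1 DKO or NEMO/Jnk2 DKO, carried the same global Jnk deletion and in addition lost NEMO in hepatocytes through Alb-cre, so that other liver cells kept NEMO. No group with NEMO loss alone was analysed here, so an effect of NEMO loss could be read only on a Jnk-null background.

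Long-chain fatty acids enter mitochondria as carnitine esters and are shortened there by beta-oxidation, while peroxisomes start on very long chains and on dicarboxylic acids. Cyp4a enzymes of the endoplasmic reticulum hydroxylate the far end of the chain (omega-oxidation), which yields the dicarboxylic acids that peroxisomes shorten. In liver the nuclear receptor PPAR alpha, paired with RXR, drives genes of all of these routes, and Cyp4a10 and Cyp4a14 are among its most responsive targets during fasting and after fibrate treatment. Each member fits 1 step: Cpt1a makes the acylcarnitine at the outer mitochondrial membrane, Hadha is the alpha subunit of the mitochondrial trifunctional protein, Ehhadh is the peroxisomal bifunctional enzyme, and Acaa1b is a peroxisomal thiolase.

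The arrays held liver RNA by their markers. The 5 hepatocyte markers averaged 12.79 to 13.01 over the 15 arrays, and the 4 adipocyte markers averaged 3.14 to 3.65. Mapk8 lay at 5.87 to 6.53 in the 6 Jnk1-null arrays and at 6.58 to 7.03 in the others, and Mapk9 lay at 2.39 to 3.28 in the 6 Jnk2-null arrays and at 7.41 to 7.67 in the others. The arrays labelled Jnk1 KO replicate 1 and Jnk2 KO replicate 3 went against their NEMO label. Ly6d was 10.12 and 9.70 there, within the 7.88 to 10.48 of the 6 double-knockout arrays and far above the 4.67 to 5.35 of the remaining 7 arrays with NEMO intact. Ikbkg was 6.75 and 6.24 there, in the range of the double knockouts (6.18 to 6.85) and below that of the remaining 7 (7.03 to 7.41). Xist, the transcript that silences one X chromosome in females, was high in 3 arrays although all mice were labelled male: 8.68 in Jnk1 KO replicate 1, 9.17 in NEMO/Jnk1 DKO replicate 1 and 9.08 in its replicate 2. The remaining 12 arrays read 2.40 to 2.82. Results are therefore given as labelled and also without the 2 arrays that went against their NEMO label (the 2 doubted arrays). NEMO/Jnk1 DKO holds 2 of the 3 high Xist arrays, so 2 of the 3 mice behind every result on that group had high Xist. In whole liver, fewer cells of a type and less RNA per cell cannot be told apart.

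Promoter sequences from RefSeq (GRCm38.p6, 250 bases before to 50 after the start of the gene) were at hand for 4 of the 7 genes: Cpt1a, Hadha, Ehhadh and Acaa1b. Cyp4a10, Cyp4a14 and Cyp4a31 had no entry. The mitochondrial entry enzyme Cpt1a and the peroxisomal pair Ehhadh and Acaa1b are shown, as the entry step of one route and the later steps of the other. Capitals mark matches on either strand to AGGTCA (read TGACCT on the other strand), the core of the sites bound by nuclear receptors such as PPAR alpha and RXR, and to CCAAT (read ATTGG), a common promoter element.
Cpt1a, chr19:3323051-3323350, plus strand: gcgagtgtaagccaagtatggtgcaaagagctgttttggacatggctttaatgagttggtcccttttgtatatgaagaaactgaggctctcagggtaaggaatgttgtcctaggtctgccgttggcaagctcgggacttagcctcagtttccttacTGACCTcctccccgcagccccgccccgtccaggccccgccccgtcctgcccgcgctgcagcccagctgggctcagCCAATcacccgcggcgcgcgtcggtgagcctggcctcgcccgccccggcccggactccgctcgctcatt
Ehhadh, chr16:21787785-21788084, minus strand: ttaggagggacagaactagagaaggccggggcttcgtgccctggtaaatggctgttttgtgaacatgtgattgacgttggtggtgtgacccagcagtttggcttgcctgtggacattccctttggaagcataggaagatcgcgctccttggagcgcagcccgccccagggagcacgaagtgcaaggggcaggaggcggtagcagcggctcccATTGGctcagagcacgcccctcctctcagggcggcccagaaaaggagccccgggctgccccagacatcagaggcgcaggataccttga
Acaa1b, chr9:119157044-119157343, minus strand: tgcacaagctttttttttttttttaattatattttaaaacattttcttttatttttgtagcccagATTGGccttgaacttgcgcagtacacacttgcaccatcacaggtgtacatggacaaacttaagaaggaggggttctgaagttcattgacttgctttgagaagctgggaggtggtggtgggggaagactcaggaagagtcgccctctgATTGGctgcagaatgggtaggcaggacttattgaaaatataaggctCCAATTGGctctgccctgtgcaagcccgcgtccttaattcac
Positions are counted from the start of the gene, with -1 the base before it. An AGGTCA match stood in Cpt1a at -94, read as TGACCT, and 16.3% of the 32851 promoters in the table hold at least 1. CCAAT matches stood in all 3 sequences: at -19 in Cpt1a, at -38 in Ehhadh, and at -185 and -38 in Acaa1b, which held another overlapping pair from position 9 on. At least 1 CCAAT match was held by 37.4% of the promoters. The full direct repeat AGGTCANAGGTCA, with 1 free base between the copies, was in none of the 4 promoters and in 0.0396% of all promoters. The Hadha promoter (chr5:30154931-30155230, minus strand, not shown) held none of these motifs. These matches describe the letters in this window and nothing else.

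The levels in all 15 arrays separated the 7 genes by how widely they varied. Cyp4a14 ran from 5.43 in WT replicate 3 to 11.50 in NEMO/Jnk1 DKO replicate 1, a 67.2-fold range. Cyp4a31 ran from 6.66 to 9.87 (9.30-fold) and Cyp4a10 from 7.43 to 10.33 (7.49-fold), with their extremes in the same livers as Cyp4a14. Ehhadh covered 9.26 to 10.70 (2.70-fold), Acaa1b 9.37 to 10.55 (2.26-fold), Cpt1a 9.21 to 9.96 (1.68-fold) and Hadha 9.94 to 10.38 (1.36-fold). Where groups did not overlap in a gene, this is given below as description alone. The share of all genes that separate the same groups was not counted.

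**Figure D1:**
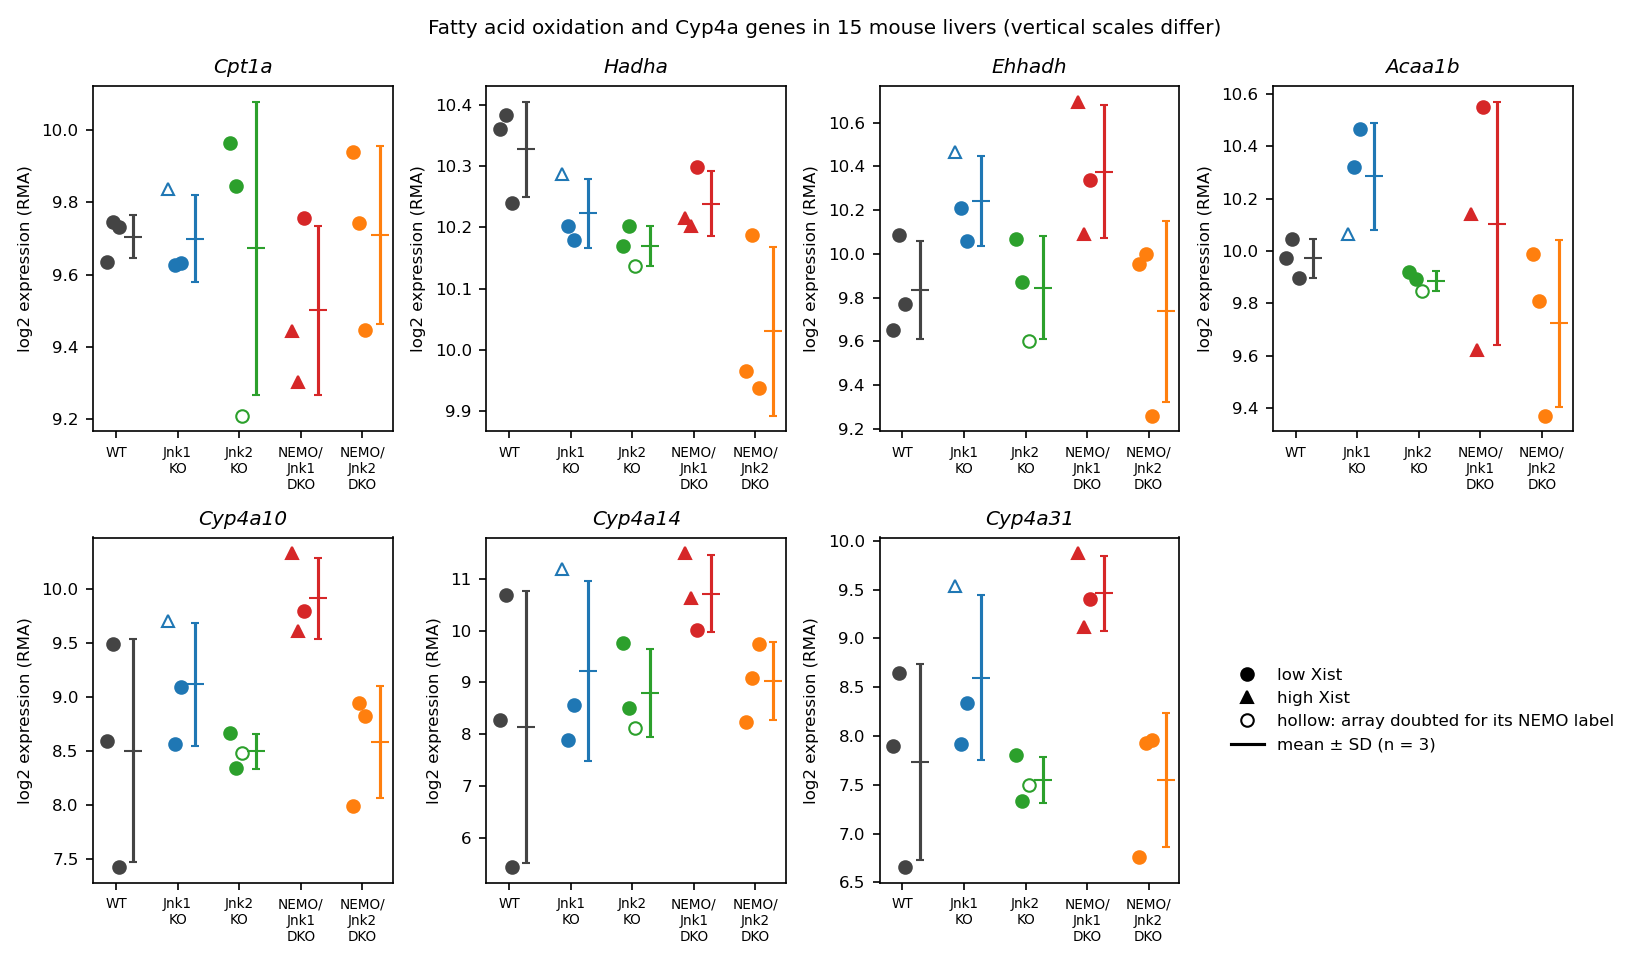
Log2 expression (RMA) of the 7 genes in each of the 15 arrays by labelled group, 1 panel per gene with its own vertical scale; points are arrays, triangles are the 3 arrays with high Xist, hollow points the 2 doubted arrays, and bars mean ± SD (n = 3). The 3 NEMO/Jnk1 DKO points lie above all NEMO/Jnk2 DKO points for Ehhadh, Hadha and the 3 Cyp4a genes, and the WT points of Cyp4a14 spread from 5.43 to 10.69. The share of all genes that separate these groups was not counted.

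The Cyp4a genes varied widely between mice of 1 genotype. The residual SD within groups was 1.54 for Cyp4a14, which ranked 18 of 19938 genes, 0.69 for Cyp4a31 (rank 204) and 0.61 for Cyp4a10 (rank 331), against a median of 0.15 over all genes. Among the oxidation enzymes it was 0.29 for Ehhadh, 0.27 for Acaa1b and 0.24 for Cpt1a. Hadha, at 0.08, was steadier than most: 4.83% of genes had a smaller residual SD. Without the 2 doubted arrays Cyp4a14 stood at 1.46 (rank 11), and without the 3 high Xist arrays at 1.55 (rank 2). The 3 WT values of Cyp4a14 covered a 38.4-fold range, and with WT left out the residual SD of Cyp4a14 was 1.11 (rank 68).

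**Figure D2:**
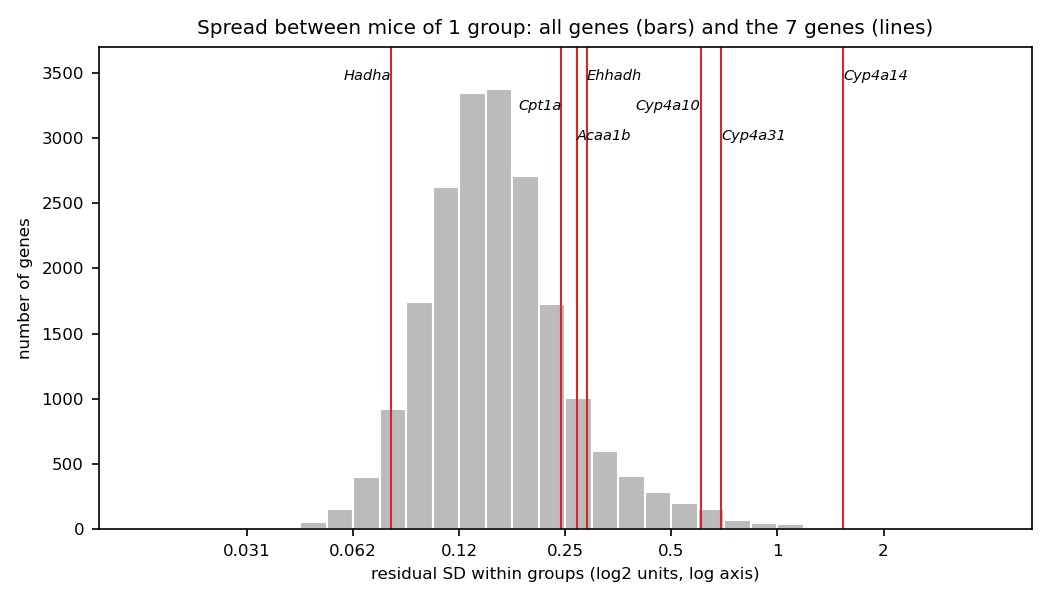
Residual SD within groups (log2 units, log axis) over all 19938 genes as a histogram of gene counts, with a line for each of the 7 genes. The 3 Cyp4a genes stand at 0.61, 0.69 and 1.54, in the right tail, and Hadha at 0.08, left of the median of 0.15.

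Cpt1a, the gate of mitochondrial import, had means of 9.67 to 9.71 in 4 groups and 9.50 in NEMO/Jnk1 DKO. It was 9.64, 9.75 and 9.73 in WT, 9.84, 9.63 and 9.63 in Jnk1 KO and 9.96, 9.85 and 9.21 in Jnk2 KO (replicates 1 to 3). It was 9.44, 9.30 and 9.76 in NEMO/Jnk1 DKO and 9.94, 9.74 and 9.45 in NEMO/Jnk2 DKO. The lowest value belonged to the doubted Jnk2 KO array, and the next lowest to the 2 NEMO/Jnk1 DKO arrays with high Xist, and every group overlapped every other. NEMO/Jnk2 DKO differed from WT by 0.01 (SE 0.18, 95% interval -0.38 to 0.39) and NEMO/Jnk1 DKO by -0.20 (SE 0.18, -0.59 to 0.19). Neither passed the test, and a change of the size of these bounds was not detectable with 3 mice a group.

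Hadha, which carries out the middle steps of long-chain beta-oxidation in mitochondria, was highest in WT. Its WT values were 10.36, 10.38 and 10.24, and its NEMO/Jnk2 DKO values were 9.96, 10.19 and 9.94, so that these groups did not overlap. In Jnk1 KO it was 10.29, 10.20 and 10.18, in Jnk2 KO 10.17, 10.20 and 10.14, and in NEMO/Jnk1 DKO 10.22, 10.20 and 10.30. All WT arrays also lay above all Jnk2 KO arrays, and all NEMO/Jnk1 DKO arrays above all NEMO/Jnk2 DKO arrays. The difference of NEMO/Jnk2 DKO from WT was -0.30 (SE 0.08, 95% interval -0.48 to -0.12), with an adjusted p of 0.074 over all genes. Without the 2 doubted arrays, which belong to neither group and enter only the shared estimate of the spread, the same difference had an adjusted p of 0.048 and passed. None of the 3 high Xist arrays is in these groups. The 5 hepatocyte markers averaged 12.79 to 12.86 in NEMO/Jnk2 DKO and 12.88 to 13.01 in WT, and the 6 macrophage markers 7.40 to 7.90 and 6.14 to 6.91. The part of these cell types in the Hadha difference was not tested.

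Ehhadh, which carries out the hydratase and dehydrogenase steps in peroxisomes, was highest in NEMO/Jnk1 DKO. Its values there were 10.70, 10.09 and 10.34, against 9.65, 10.08 and 9.77 in WT, 10.07, 9.87 and 9.60 in Jnk2 KO and 9.95, 10.00 and 9.26 in NEMO/Jnk2 DKO. Every NEMO/Jnk1 DKO array lay above every array of these groups, the narrowest margin being replicate 2 at 10.09 against WT replicate 2 at 10.08. Jnk1 KO, at 10.46, 10.21 and 10.06, overlapped NEMO/Jnk1 DKO. The difference of NEMO/Jnk1 DKO from WT was 0.54 (SE 0.21, adjusted p 0.22) and from NEMO/Jnk2 DKO 0.64 (SE 0.21, adjusted p 0.62). Neither passed, also without the 2 doubted arrays (adjusted p 0.12 and 0.33). The 10.70 and the 10.09 came from the high Xist mice. Without the 3 high Xist arrays the difference from WT was 0.50 (SE 0.28) and rested on NEMO/Jnk1 DKO replicate 3 alone.

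Acaa1b, the thiolase that closes the peroxisomal cycle, was 10.07, 10.32 and 10.47 in Jnk1 KO, against 9.97, 10.05 and 9.90 in WT and 9.92, 9.89 and 9.85 in Jnk2 KO. Each Jnk1 KO array was above each array of WT, Jnk2 KO and NEMO/Jnk2 DKO (9.99, 9.81 and 9.37). NEMO/Jnk1 DKO covered a wide range, at 10.14, 9.62 and 10.55, and its lower 2 values came from the high Xist arrays. The difference of Jnk1 KO from WT was 0.31 (SE 0.20, adjusted p 0.87), and 0.42 without the 2 doubted arrays (SE 0.22, adjusted p 0.98).

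Cyp4a31 gave the clearest group pattern of the omega-hydroxylases. It was 9.87, 9.11 and 9.40 in NEMO/Jnk1 DKO, against 7.90, 8.65 and 6.66 in WT, 7.80, 7.34 and 7.50 in Jnk2 KO and 6.76, 7.93 and 7.96 in NEMO/Jnk2 DKO. The NEMO/Jnk1 DKO arrays lay above all arrays of these 3 groups, and Jnk1 KO, at 9.54, 7.92 and 8.34, overlapped NEMO/Jnk1 DKO in its doubted replicate 1 alone. NEMO/Jnk1 DKO was 3.31-fold above WT, a log2 difference of 1.73 (SE 0.49, 95% interval 0.68 to 2.77) with an adjusted p of 0.14. Without the 2 doubted arrays the difference was again 1.73, its SE fell to 0.43 and it passed with an adjusted p of 0.025. Jnk1 KO replicate 1 alone decided this: with only that array left out the adjusted p was 0.037. The high Xist arrays bear on it too, since 2 of the 3 NEMO/Jnk1 DKO mice had high Xist. With all 3 high Xist arrays left out the difference was 1.67 (SE 0.62) and rested on NEMO/Jnk1 DKO replicate 3 alone. That array, at 9.40, had the highest Cyp4a31 value among the 12 low Xist arrays. The hepatocyte markers averaged 12.89 to 12.94 in NEMO/Jnk1 DKO, within the WT range, while the macrophage markers averaged 7.54 to 8.00 and the 5 stellate cell markers 7.38 to 7.55, above the WT values of 6.14 to 6.91 and 6.10 to 6.45. The part of those cells in the Cyp4a differences was not tested.

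Cyp4a10, which hydroxylates fatty acids such as lauric acid, was also highest in NEMO/Jnk1 DKO. Its values were 10.33, 9.61 and 9.80 in NEMO/Jnk1 DKO, 8.60, 9.49 and 7.43 in WT and 9.70, 8.57 and 9.10 in Jnk1 KO. They were 8.67, 8.34 and 8.48 in Jnk2 KO and 7.99, 8.94 and 8.83 in NEMO/Jnk2 DKO. NEMO/Jnk1 DKO lay above WT, Jnk2 KO and NEMO/Jnk2 DKO with no overlap, and the margin to WT replicate 2 was the smallest. The difference from WT was 1.41 (2.66-fold, SE 0.43, adjusted p 0.15), and without the 2 doubted arrays the adjusted p was 0.052. Against NEMO/Jnk2 DKO it was 1.33 (SE 0.43, adjusted p 0.59). Without the 3 high Xist arrays the difference from WT was 1.30 (SE 0.59) and rested on NEMO/Jnk1 DKO replicate 3 alone.

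Cyp4a14 had the largest errors of the 7 genes. It was 11.50, 10.63 and 10.01 in NEMO/Jnk1 DKO, 11.19, 7.89 and 8.56 in Jnk1 KO and 8.28, 10.69 and 5.43 in WT. Jnk2 KO held 9.76, 8.51 and 8.11, and NEMO/Jnk2 DKO 8.23, 9.09 and 9.74. NEMO/Jnk1 DKO was above all Jnk2 KO and NEMO/Jnk2 DKO arrays but overlapped WT, whose replicate 2 exceeded 2 of its 3 arrays. The difference of NEMO/Jnk1 DKO from WT was 2.58 (5.98-fold, SE 1.07, 95% interval 0.27 to 4.89, adjusted p 0.25). Without the 3 high Xist arrays it was 1.88 (SE 1.41) and rested on NEMO/Jnk1 DKO replicate 3 alone. Jnk1 KO differed from WT by 1.08 (SE 1.07) as labelled and by 0.09 (SE 1.05) without its doubted replicate 1.

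Cyp4a10 and Cyp4a31 cannot be read as independent genes. In RefSeq the protein-coding genes of the cluster run Cyp4a12a, Cyp4a12b, Cyp4a30b, Cyp4a14, Cyp4a10, Cyp4a31, Cyp4a32 and Cyp4b1. Cyp4a10, Cyp4a31 and Cyp4a32 are close copies, and the platform lists 1 further probe set for all 3 of them together, which no gene was read from. Signal of one copy on the probes of another is therefore uncertain.

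Across livers the 3 Cyp4a genes moved together. Over the 15 arrays Cyp4a10 correlated with Cyp4a31 at Pearson r = 0.98 (Spearman rho 0.98, permutation p 1e-05 for each, the smallest 100000 permutations can give; adjusted p 0.000105 and 0.00021 over 21 gene pairs). Cyp4a10 correlated with Cyp4a14 at r = 0.91 (rho 0.90, permutation p 1e-05 and 2e-05, adjusted p 0.000105 and 0.00021) and Cyp4a14 with Cyp4a31 at r = 0.85 (rho 0.85, permutation p 6e-05 and 0.00014, adjusted p 0.00042 and 0.00098). Without the 2 arrays farthest from the median, r was 0.98, 0.83 and 0.79 in the same order. Within the 12 low Xist arrays it was 0.97, 0.85 and 0.73, and for deviations from the group means over all 15 arrays it was 0.97, 0.93 and 0.93. The shared movement thus stood within genotypes as well as between them, and WT replicates 2 and 3, at the top and the bottom of the WT values for all 3 genes, are part of it.

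**Figure D3:**
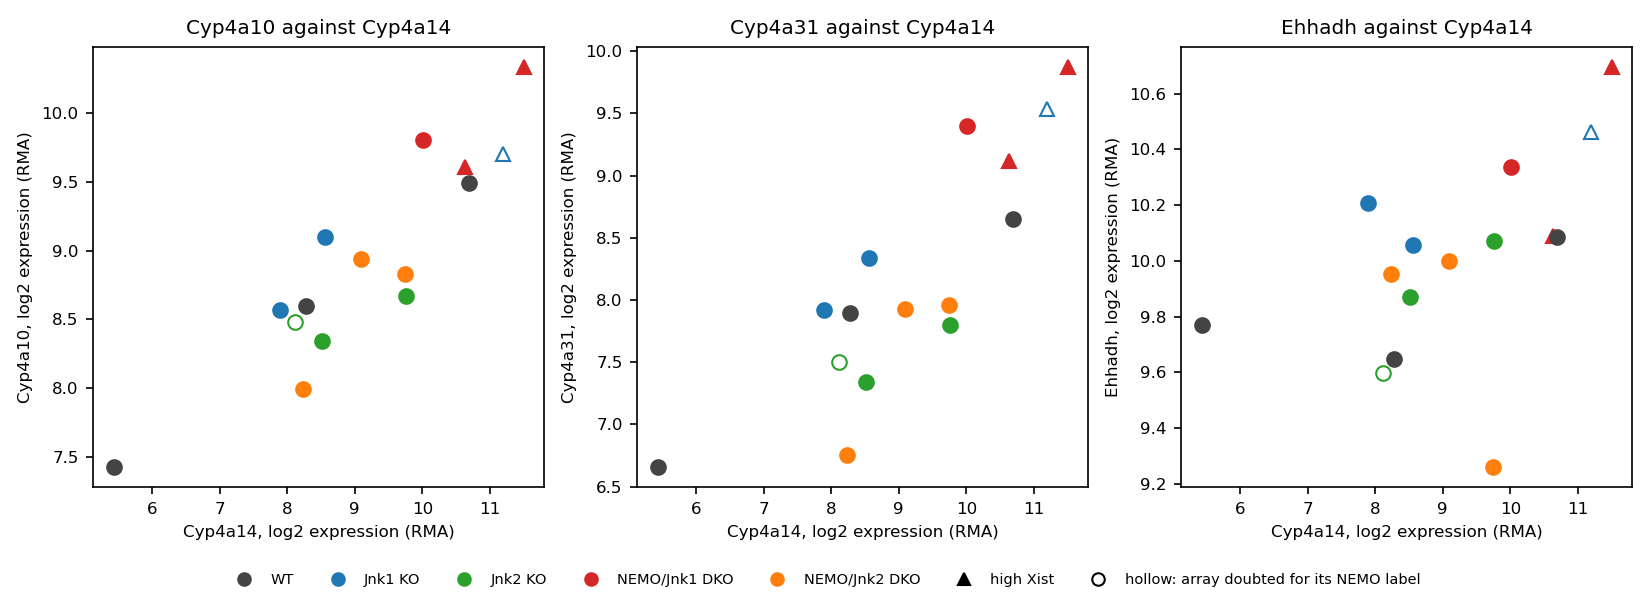
Log2 expression of Cyp4a10, Cyp4a31 and Ehhadh (vertical axes) against Cyp4a14 (horizontal axis), 1 point per array, coloured by group, with triangles for high Xist and hollow points for the 2 doubted arrays. Cyp4a10 (r = 0.91) and Cyp4a31 (r = 0.85) follow Cyp4a14 from WT replicate 3 at the lower left to NEMO/Jnk1 DKO replicate 1 at the upper right, and Ehhadh follows it less closely (r = 0.53).

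Ehhadh followed the Cyp4a genes less closely. With Cyp4a31 its r was 0.69 (rho 0.72, permutation p 0.00478 and 0.00286, adjusted p 0.0251 and 0.0138 over the 21 pairs) and with Cyp4a14 it was 0.53 (rho 0.64, permutation p 0.0433 and 0.0118, adjusted p 0.13 and 0.0373). Within the 12 low Xist arrays r fell to 0.43 and 0.21 (adjusted permutation p 0.341 and 0.712) and rho to 0.50 and 0.40 (adjusted permutation p 0.361 and 0.384). The fall in r depended on few arrays. Without the 2 of these 12 arrays farthest from the Ehhadh median, r was 0.67 and 0.55. Ehhadh and Acaa1b, the peroxisomal pair, correlated at r = 0.63 over 15 arrays (rho 0.64, permutation p 0.013 and 0.0124, adjusted p 0.0454 and 0.0373) and at r = 0.83 over the 12 (rho 0.76, adjusted p 0.00665 and 0.0398). Without the 2 arrays farthest from the median, the Ehhadh and Acaa1b value over 15 arrays was 0.48. For deviations from the group means over all 15 arrays, the r of Ehhadh was 0.29 with Cyp4a31, 0.36 with Cyp4a14 and 0.44 with Acaa1b. The permutations ignored the groups, so these p-values do not separate differences between groups from those between mice of 1 group. Cpt1a showed no such relation with the Cyp4a genes: its r was -0.25 with Cyp4a10, -0.10 with Cyp4a14 and -0.24 with Cyp4a31 (rho -0.17, 0.06 and -0.25, adjusted permutation p 0.503, 0.758 and 0.503 for r). With Ehhadh and Acaa1b the r of Cpt1a was 0.22 and 0.30 over the 15 arrays (adjusted permutation p 0.527 and 0.449). For deviations from the group means these were 0.66 and 0.53.

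In the test over all genes (limma, Benjamini-Hochberg adjusted p under 0.05, 19938 genes), 0 of the 7 members passed in any of the 9 comparisons as labelled. The share of all genes called was 0% for NEMO/Jnk1 DKO minus Jnk1 KO, 0.00502% for NEMO/Jnk2 DKO minus Jnk2 KO, 0.01% for Jnk1 KO minus WT and 0.411% for Jnk2 KO minus WT. It was 0.0652% for NEMO/Jnk1 DKO minus WT, 2.63% for NEMO/Jnk2 DKO minus WT, 0.13% for Jnk1 KO minus Jnk2 KO, 0.105% for NEMO/Jnk1 DKO minus NEMO/Jnk2 DKO and 0% for the difference of the NEMO effects. At an unadjusted p under 0.05, limma gave 4 members for NEMO/Jnk1 DKO minus WT (Cyp4a10, Cyp4a14, Cyp4a31 and Ehhadh) and 4 for NEMO/Jnk1 DKO minus NEMO/Jnk2 DKO (Cyp4a10, Cyp4a31, Ehhadh and Hadha). Of all genes, 16.3% and 5.44% had such a p in these comparisons. It gave 1 for NEMO/Jnk2 DKO minus WT (Hadha), where 18.9% of all genes had one, 1 for Jnk1 KO minus Jnk2 KO (Cyp4a31), where 7% had one, and 0 for the other 5 comparisons.

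Without the 2 doubted arrays, 1 of 7 members passed for NEMO/Jnk1 DKO minus WT (Cyp4a31, higher), where 7.91% of all genes did, and 1 of 7 for NEMO/Jnk2 DKO minus WT (Hadha, lower), where 10.6% did. With 1 of 7 against such shares, the counts are no result about these genes as a set. The other comparisons had 0 of 7 members past the adjusted threshold, against 5.18% of genes for NEMO/Jnk1 DKO minus Jnk1 KO, 5.85% for NEMO/Jnk2 DKO minus Jnk2 KO, 0.015% for Jnk1 KO minus WT and 1.24% for Jnk2 KO minus WT. The share was 0.597% for Jnk1 KO minus Jnk2 KO, 0.321% for NEMO/Jnk1 DKO minus NEMO/Jnk2 DKO and 0.01% for the difference of the NEMO effects. At an unadjusted p under 0.05, limma then gave 4 members for NEMO/Jnk1 DKO minus WT, 1 for NEMO/Jnk2 DKO minus WT, 3 for NEMO/Jnk1 DKO minus Jnk1 KO (the 3 Cyp4a genes), 4 for NEMO/Jnk1 DKO minus NEMO/Jnk2 DKO and 0 for the other 5. The shares of all genes with such a p were 20.8%, 22.7%, 16.8% and 7.5% for these 4 comparisons in the same order.

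**Figure D4:**
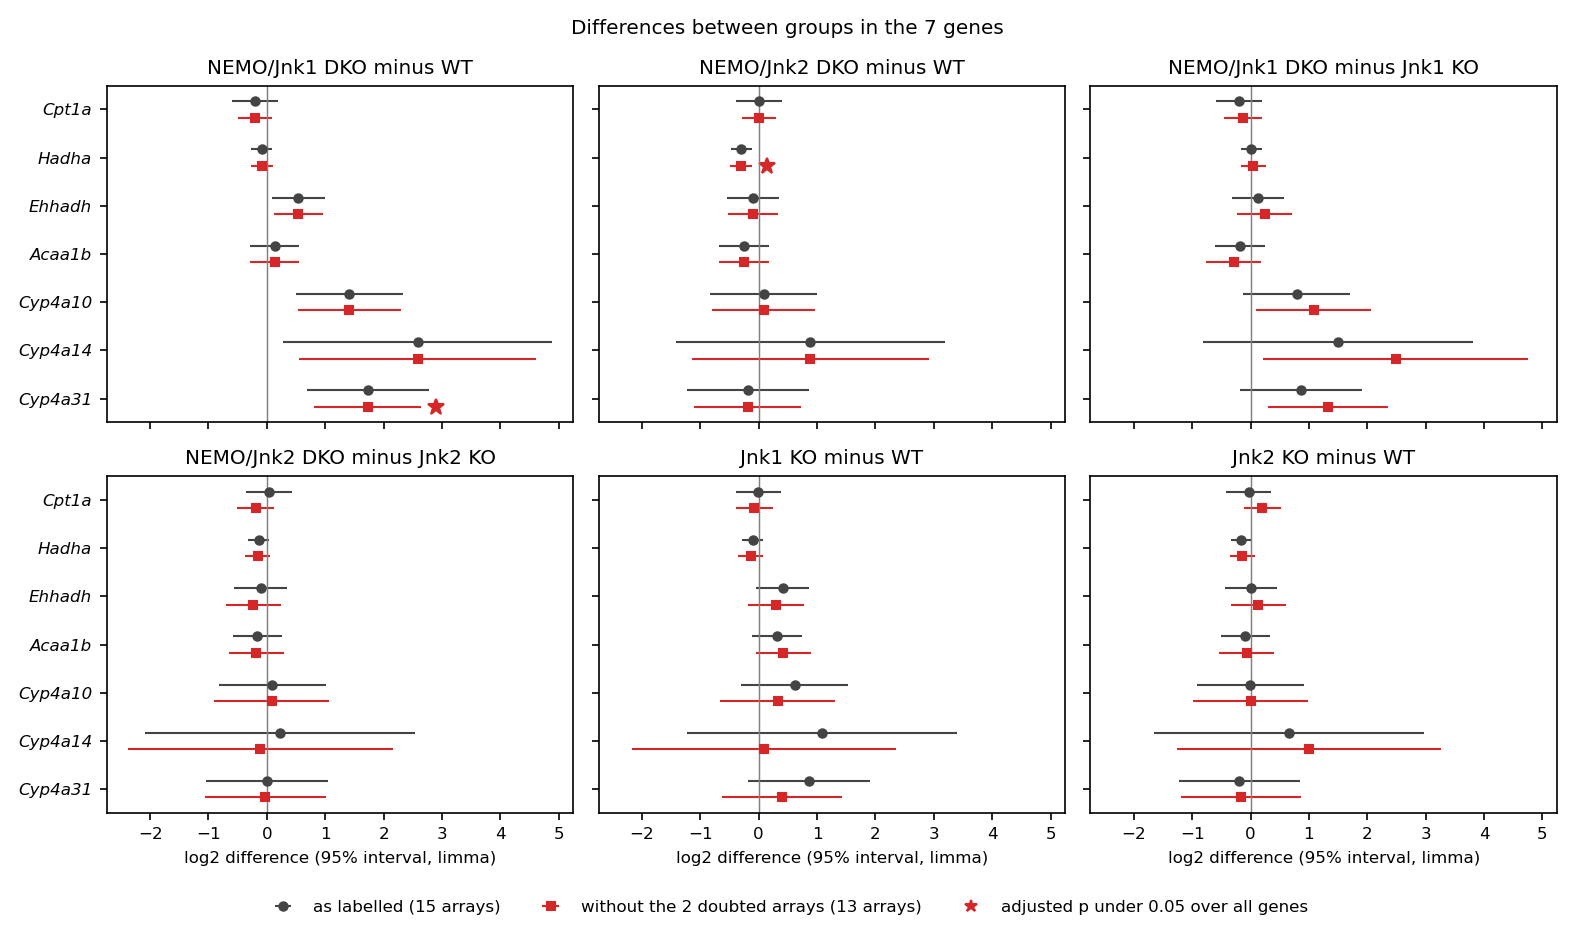
Log2 differences of the 7 genes in 6 comparisons, with 95% intervals from limma; circles are the fit as labelled (15 arrays), squares the fit without the 2 doubted arrays (13 arrays), and a star marks an adjusted p under 0.05 over all genes. Stars stand only at Cyp4a31 in NEMO/Jnk1 DKO minus WT (1.73) and Hadha in NEMO/Jnk2 DKO minus WT (-0.30), and the Cyp4a14 intervals are the widest.

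The added loss of NEMO was read within each Jnk background. On the Jnk1-null background Cyp4a10 differed by 0.79 (SE 0.43), Cyp4a14 by 1.498 (SE 1.07) and Cyp4a31 by 0.86 (SE 0.49), each with an adjusted p of 0.96, and without the 2 doubted arrays by 1.08, 2.49 and 1.33 (adjusted p 0.24, 0.24 and 0.15). The latter values set 2 high Xist mice of 3 against 0 of 2. With a term for high Xist in the fit as labelled the 3 differences were 0.62, 0.83 and 0.61. That fit keeps the doubted Jnk1 KO replicate 1, itself high in Xist, among the mice with NEMO intact. Without the 3 high Xist arrays the differences were 0.97, 1.78 and 1.27, with NEMO/Jnk1 DKO replicate 3 alone on one side. On the Jnk2-null background the same genes differed by 0.09 (95% interval -0.83 to 1.00), 0.23 (-2.08 to 2.53) and 0.00 (-1.04 to 1.04). The difference between these effects was 0.70 (SE 0.60) for Cyp4a10, 1.27 (SE 1.52) for Cyp4a14 and 0.86 (SE 0.69) for Cyp4a31, and did not pass for any of them, nor without the 2 doubted arrays (1.00, 2.60 and 1.36, adjusted p 0.86, 0.82 and 0.77). An effect of NEMO loss that differs between the Jnk backgrounds was not shown for these genes.

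High Xist went with high Cyp4a levels, but not apart from genotype. The 3 high Xist arrays ranked 1, 2 and 4 of 15 for Cyp4a14 and Cyp4a31 and 1, 3 and 4 for Cyp4a10. They are 2 NEMO/Jnk1 DKO livers and the doubted Jnk1 KO replicate 1. High Xist and NEMO loss therefore cannot be told apart in these ranks. Within NEMO/Jnk1 DKO, low Xist replicate 3 lay between the high Xist replicates for Cyp4a10 (9.80) and Cyp4a31 (9.40). It lay below both for Cyp4a14 (10.01). The related genes Cyp4a12a and Cyp4a12b, known as male-biased genes of mouse liver, went the other way than these 3 Cyp4a genes. Cyp4a12a was 7.07 in Jnk1 KO replicate 1 and, in NEMO/Jnk1 DKO, 5.19 in replicate 1 and 7.70 in replicate 2. The low Xist arrays read 10.62 to 11.37 for it. When a term for high Xist was added to the fit, its coefficient was 2.01 (SE 1.02, adjusted p 0.50) for Cyp4a14, 0.75 (SE 0.48, adjusted p 0.62) for Cyp4a31 and -0.50 (SE 0.17, adjusted p 0.29) for Acaa1b. None of the 7 members passed for this term, against 0.301% of all genes, and 1 (Acaa1b) had an unadjusted p under 0.05, as had 11% of all genes. Without the 2 doubted arrays again none passed, against 0.0903%. With the term, NEMO/Jnk1 DKO minus WT was 1.24 for Cyp4a14, 1.23 for Cyp4a31 and 1.06 for Cyp4a10. The term rests on few mice: 1 of the 3 NEMO/Jnk1 DKO mice and 2 of the 3 Jnk1 KO mice had low Xist, and no other group had a mouse with high Xist. In Jnk1 KO it sets the doubted replicate 1 against replicates 2 and 3. High Xist and apparent NEMO loss are thus mixed in the coefficients as labelled and in the differences from WT given with the term. Their parts were not tested.

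Other genes of these routes were counted from lists of the pathway. As labelled, NEMO/Jnk2 DKO minus WT was the comparison with calls among them: 0 of 23 mitochondrial beta-oxidation genes were higher and 1 lower, with a median of -0.21, and 0 of 23 peroxisomal genes were higher and 1 lower, with a median of -0.25. The median over all genes was -0.04, and 0.873% of all genes were called higher and 1.76% lower. The genes that fell were Eci1 (-0.54, SE 0.12, adjusted p 0.033), an isomerase for unsaturated chains, and Pecr (-0.61, SE 0.13, adjusted p 0.030), a peroxisomal reductase. Among 15 Cyp4 and omega-oxidation genes Cyp4f16 rose (1.05, SE 0.16, adjusted p 0.0072) and Cyp4f14 fell (-0.77, SE 0.17, adjusted p 0.032), and among 20 other PPAR alpha targets Cd36, a fatty acid carrier of the cell surface, rose (2.22, SE 0.55, adjusted p 0.049). Of the 6 macrophage markers 1 passed in the same comparison, and all 6 had positive differences with a median of 1.03. Their part in the Cd36 difference was not tested.

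Without the 2 doubted arrays, 5 of 23 mitochondrial genes fell and 0 rose in NEMO/Jnk2 DKO against WT, Hadha among them with Cpt2 (-0.41, SE 0.10, adjusted p 0.021) and Etfdh (-0.32, SE 0.09, adjusted p 0.030). Of the 23 peroxisomal genes 3 fell and 0 rose. Of all genes 4.86% fell and 5.75% rose there. In NEMO/Jnk1 DKO against WT 0 mitochondrial genes fell and 1 rose, while 3 peroxisomal genes rose and 2 fell: the acyl-CoA thioesterases Acot3 (1.44, SE 0.21, adjusted p 0.0012) and Acot4 (1.05, SE 0.20, adjusted p 0.0060) and the transporter Abcd2 (1.70, SE 0.37, adjusted p 0.012) were higher and Nudt7 was lower (-1.12, SE 0.25, adjusted p 0.016). Among the 15 Cyp4 and omega-oxidation genes 3 rose and 1 fell, but 6 had positive and 9 negative differences, with a median of -0.14. Of all genes 4.92% rose and 2.99% fell. Again 2 of the 3 NEMO/Jnk1 DKO mice had high Xist. Without the 3 high Xist arrays NEMO/Jnk1 DKO replicate 3 stood alone for its group, too few arrays for calls to be counted. The list medians were then 0.03 (peroxisomal), 0.05 (mitochondrial) and 0.06 (Cyp4 and omega-oxidation), against -0.09, -0.05 and -0.14 without the 2 doubted arrays. Over the 15 arrays the Pearson r with Cyp4a14 was 0.59 for Acot4, 0.76 for Acot3 and 0.85 for Abcd2. Over the 12 low Xist arrays it was 0.11, 0.52 and 0.74 in the same order. These comparisons share the WT arrays.

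Against the Jnk single knockouts, also without the 2 doubted arrays, 3 peroxisomal genes rose and 3 fell in NEMO/Jnk1 DKO, with Abcd2 (2.28, SE 0.41, adjusted p 0.0053), Acot3 (1.44, SE 0.24, adjusted p 0.0032) and Acot4 (1.41, SE 0.22, adjusted p 0.0026) higher. Their list had a median of -0.18, and 4.05% of all genes rose and 1.13% fell. That comparison set 2 high Xist mice of 3 against 0 of 2. Without the 3 high Xist arrays the peroxisomal median was 0.05, with NEMO/Jnk1 DKO replicate 3 alone for its group, too few arrays for calls to be counted. In NEMO/Jnk2 DKO 1 peroxisomal gene rose and 1 fell, and 2 mitochondrial genes fell, Eci1 (-0.46, SE 0.11, adjusted p 0.027) and Eci2 (-0.64, SE 0.14, adjusted p 0.016), while 3.88% of all genes rose and 1.98% fell. Lpin1, a coactivator of PPAR alpha, fell by 2.15 there (SE 0.44, adjusted p 0.012). Abcd2, Acot3 and Acot4 are counted among the peroxisomal genes here and, like the Cyp4a genes, are known PPAR alpha targets.

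Ppara, which encodes PPAR alpha, was 8.71, 8.68 and 8.73 in WT and 7.96, 8.36 and 8.43 in NEMO/Jnk1 DKO, with no overlap, a difference of -0.46 (SE 0.19, adjusted p 0.25) that passed without the 2 doubted arrays (SE 0.11, adjusted p 0.022). Over the 15 arrays its Pearson r with Cyp4a14 was -0.57, and -0.21 over the 12 low Xist arrays. The 7.96 and the 8.36 came from the high Xist mice. In the same fit Rxra, the partner receptor, fell by 0.40 (SE 0.09, adjusted p 0.020) in NEMO/Jnk1 DKO against WT. Of 15 receptors and regulators 3 fell and 0 rose in that comparison, with a median of -0.23. Without the 3 high Xist arrays the median was -0.06, with NEMO/Jnk1 DKO replicate 3 alone for its group, too few arrays for calls to be counted. The 15 genes averaged 6.53 to 6.70 in the 3 high Xist arrays and 6.69 to 7.01 in the 12 others. The 12 include WT at 6.77 to 7.01, NEMO/Jnk2 DKO at 6.69 to 6.77 and NEMO/Jnk1 DKO replicate 3 at 6.90. The 3 high Xist arrays are 2 NEMO/Jnk1 DKO livers and the doubted Jnk1 KO replicate 1. High Xist and NEMO loss are thus mixed in these averages, and their parts were not tested. In the fit without the 2 doubted arrays 2 fell and 0 rose in NEMO/Jnk2 DKO against WT, where the coactivator Ppargc1a fell by 0.90 (SE 0.14, adjusted p 0.0011). Of the 20 other PPAR alpha targets 3 rose and 1 fell in NEMO/Jnk1 DKO and 5 rose and 1 fell in NEMO/Jnk2 DKO, with Cd36, Acot2 and Pdk4 higher in each. In the same fit 4.92% of all genes rose and 2.99% fell in NEMO/Jnk1 DKO against WT. In NEMO/Jnk2 DKO against WT 5.75% rose and 4.86% fell. These shares also stand beside the counts of the 15 receptors and regulators. The median of the 20 targets in NEMO/Jnk1 DKO against WT was 0.12 in this fit. Without the 3 high Xist arrays it was 0.10, with NEMO/Jnk1 DKO replicate 3 alone for its group.

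**Figure D5:**
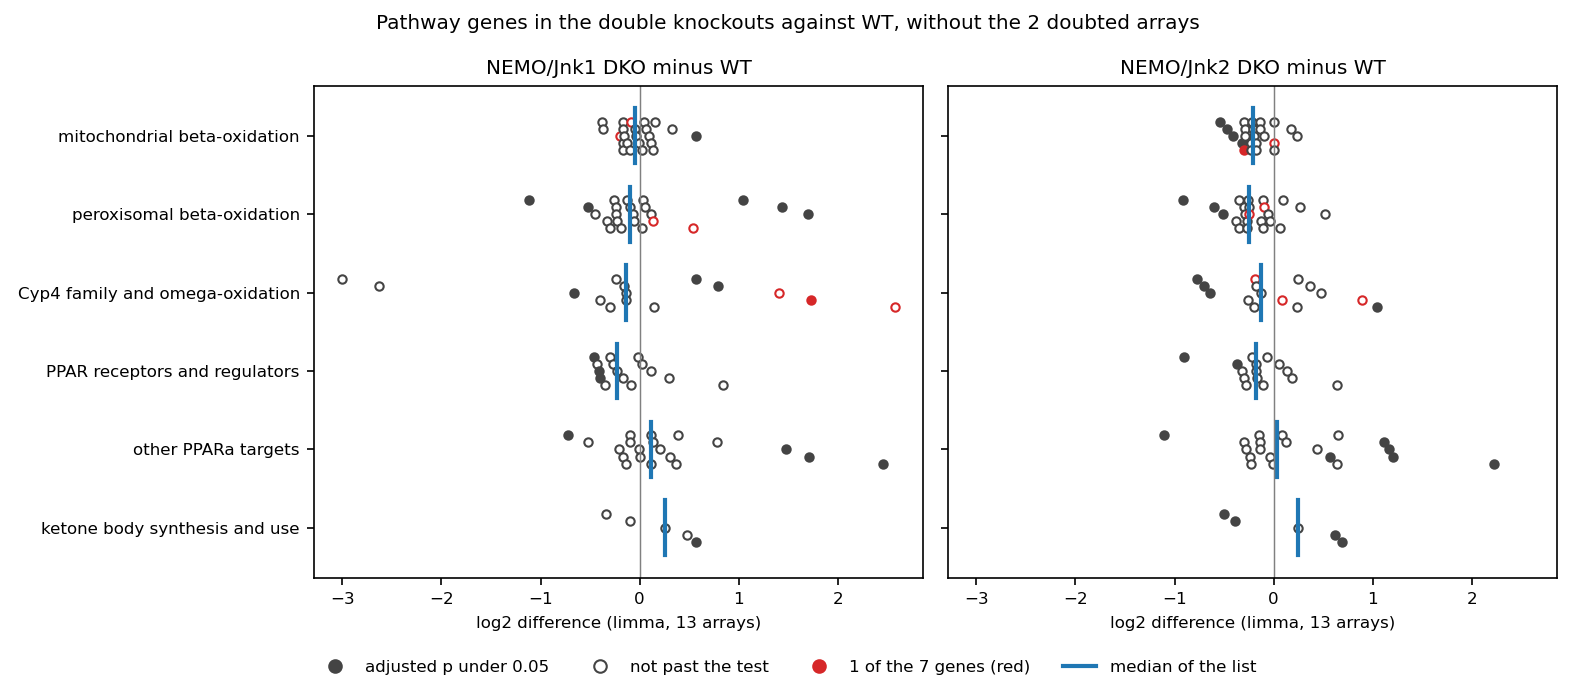
Log2 differences from WT in NEMO/Jnk1 DKO (left) and NEMO/Jnk2 DKO (right) for the genes of 6 lists, 1 point per gene, without the 2 doubted arrays; filled points have an adjusted p under 0.05, red points are members of the 7 genes, and the blue line is the median of the list. The Cyp4a members stand right of 0 on the left panel, where the Cyp4 and omega-oxidation list has a median of -0.14. The mitochondrial and peroxisomal lists lie mostly left of 0 on the right panel (medians -0.21 and -0.25).

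The genes whose pattern over the 15 arrays was most like Cyp4a14, by Pearson r among 19931 others, were Raet1d (0.89), Rdh16f2 (0.85), Abcd2 (0.85), Kctd2 (0.83) and Pde4d (0.82). Within the 12 low Xist arrays r was 0.84, 0.77, 0.74, 0.80 and 0.75 for them. Most like the mean of the 7 genes, each standardised over the arrays, were Acadl (0.87), Cyb5a (0.84), Ube2e1 (0.84), Acss3 (0.84) and Slc25a5 (0.83). They ranked 1, 3, 4, 5 and 6, because entries such as provisional gene models and small RNA genes were not named. Acadl, the long-chain acyl-CoA dehydrogenase of mitochondria, kept r = 0.81 within the 12 low Xist arrays. These values describe 15 livers that share genotypes and the high Xist arrays, and no test was made of them.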

How the data were processed

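RNA of 15 livers was hybridised to Affymetrix whole-transcript arrays. The authors deposited log2 expression values per probe set, made with RMA (per the submitters' processing notes, no version stated). Base 2 was inferred from how far the values reach. Array medians lay between 4.26 and 4.38 and correlations between arrays between 0.976 and 0.991. The number of arrays limits the precision. The labels give each mouse its own number, so replicates were separate mice.

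The platform annotation gave 1 gene symbol for 21789 of the 35556 probe sets, several for 1621 and none for 12146. Each of 19938 symbols was read from its probe set with the highest mean. With limma 3.58.1 (R 4.3.3), lmFit and eBayes fitted 1 mean per group over all 15 arrays, with Benjamini-Hochberg adjustment over all genes, two-sided, threshold 0.05. SE and 95% intervals use its moderated spread. The fit was tested on simulated data. Correlations were tested with 100000 permutations of the arrays without regard to group. Same-numbered replicates did not deviate together (correlations of -0.395 to 0.304 over 30 pairs, 4 over 0.1), so numbers were not used as pairs.

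The named genes were the 7 members, label checks, Cyp4a12a and Cyp4a12b, Ppara, up to 4 genes per list past the threshold by size (otherwise 2 by p), and 5 most alike in pattern. The members, lists and doubted arrays were chosen with earlier results of these data known, and the high Xist term, the spread within groups and the correlations were added after seeing the data. Alternatives were other normalizations, priors, weights, filters, probe sets and arrays left out.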

Additional observations from a re-analysis of the deposited data

Results flagged for a closer look

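The platform lists 1 probe set for Cyp4a10, Cyp4a31 and Cyp4a32 together, and the comparisons used it for no gene. It read 11.02, 10.41 and 10.59 in NEMO/Jnk1 DKO and 9.45, 10.06 and 8.58 in WT. Every NEMO/Jnk1 DKO array was above every WT array, and the means differed by 1.31 (log2), which was not tested. The probe set shares transcripts with Cyp4a10 and Cyp4a31 and the same mice, so it gives no independent support to them.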

How the results depend on the processing

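As labelled, 0 of 7 members passed in each of the 9 comparisons. For NEMO/Jnk1 DKO minus WT the count was 2 with array weights (Cyp4a10, adjusted p 0.0495, and Cyp4a31, adjusted p 0.037) and 1 without the 2 doubted arrays, and it ran from 0 to 1 when each array was left out in turn, the 1 being Cyp4a31 without Jnk1 KO replicate 1. For NEMO/Jnk2 DKO minus WT it was 1 with array weights (Hadha, adjusted p 0.038) and 1 without the 2 doubted arrays. With a term for high Xist added to the latter fit, Cyp4a31 (adjusted p 0.28) and Hadha (adjusted p 0.058) no longer passed. Under the other alternatives run, among them normalizing again, centring, an intensity trend, a filter on dim probe sets (13873 genes kept) and every probe set, the counts stayed at 0. Comparisons of NEMO/Jnk1 DKO without the 3 high Xist arrays are left out of this, as its replicate 3 then stood alone for its group. With the replicate number as a replicate block the count was 0 in each comparison. With 3 mice a group and the spread of the Cyp4a genes, differences smaller than their intervals were not detectable.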
